A study of Mus musculus with 108 samples.

Results

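The comparison set 14 single cells labelled as parvalbumin (PV) interneurons of hippocampal area CA1 against 25 single cells labelled as CA1 pyramidal cells. They were chosen by the cell type label alone and make up 39 of the 93 single cells of a mouse hippocampus RNA-seq series. The other cells are 19 cholecystokinin (CCK) interneurons of CA1 and 35 subiculum cells labelled burst (21) or regular (14), and 15 further libraries come from whole hippocampal tissue at several ages. The PV cells carry the additional label of a fast-spiking interneuron. PV and pyramidal cells alike came from mice (Mus musculus) of postnatal weeks 3 to 4, with no strain, sex, genotype or treatment labelled, and all 39 libraries were made with version 3 of the SMARTer cDNA kit and Nextera tagmentation. Because no label ties a cell to an animal, each type was treated as 1 sample. No test between the types is possible, and all intervals below cover counting error only, for reads that are not independent molecules.

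PV interneurons of CA1 release GABA onto the cell bodies and axon initial segments of pyramidal cells, and they fire brief action potentials at high rates. Pyramidal cells are the glutamatergic principal neurons of CA1 and send its output. The PV type is known for Kv3 and Kv1 potassium channels, for AMPA receptors with fast kinetics and for the calcium buffer parvalbumin. Pyramidal cells carry dendritic spines rich in calcium and calmodulin signalling proteins.

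Reads assigned to genes totalled 30502443 in the PV cells and 31546502 in the pyramidal cells. A PV cell held 188852 to 7655742 reads (median 1114365.5), and a pyramidal cell 30025 to 3042753 (median 1171579). Levels are given as counts per 1000000 gene reads (CPM), either per cell or pooled over the reads of a type. With each cell randomly thinned to 200000 reads, which 13 PV and 23 pyramidal cells reached, a median of 4513 genes had a read in PV cells and of 2587 in pyramidal cells. Spike-in RNA (ERCC) was found in 9 PV and 9 pyramidal cells, and 5 PV and 16 pyramidal cells had none or under 100 such reads. The part of these differences in detection and spike-in in the results was not tested.

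The labels were checked against marker genes. Of 14 PV cells, 13 had a read of at least 1 of the 8 PV markers Pvalb, Gad1, Gad2, Nxph1, Slc32a1, Lhx6, Erbb4 and Kcnc1, and of 25 pyramidal cells, 23 had a read of at least 1 of the 7 pyramidal markers, among them Neurod6, Sv2b, Slc17a7, Camk2a, Wfs1 and Fibcd1. Summed over the 8 PV markers, a PV cell had 0 to 24902 CPM (median 4111), against 0 to 8360 CPM (median 1.29) in a pyramidal cell. Summed over the 7 pyramidal markers, a PV cell had 0 to 1743 CPM (median 117.5), against 0 to 6511 CPM (median 2179) in a pyramidal cell. The ranges overlapped, and markers of the other type were read in 10 PV and 15 pyramidal cells. For the PV markers the overlap came from PV replicate 1, at 0 CPM, and pyramidal replicate 1, at 8360 CPM. Every other PV cell had at least 1440 CPM of them, and every other pyramidal cell at most 155.1 CPM. For the pyramidal markers more cells overlapped.

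Several cells went against their label or stood apart. PV replicate 1 had no read of a marker of either type. PV replicates 5, 11 and 12 lacked reads of Pvalb and Nxph1 but held at least 100 CPM of Cck or Cnr1, genes that mark CCK interneurons, with 15689 CPM of Cck in replicate 11 and 8531 CPM of Cnr1 in replicate 12. Among pyramidal cells, replicate 1 held 251 reads of PV markers, all of Pvalb, against 2 of pyramidal markers. Replicate 3 held 18 reads of PV markers against 0, and replicate 16 none of either type. These 4 PV and 3 pyramidal cells are called cells against their label below. They were chosen by reads of the markers named here, so values without them are in part fixed by that choice for these genes and for the gene lists that hold them, and nothing is read from the change. Fewer than 1000 genes had a read in PV replicates 1, 3, 10 and 11 and in pyramidal replicates 1, 10, 16 and 18. PV replicate 7 followed PV replicate 4 closely, with a correlation of log2(CPM + 1) of 0.88 where the next pair of cells reached 0.44, and 97.7% of its 6724 genes had a read in replicate 4 as well. No label says whether these 2 libraries share a source. Replicate numbers are in accession order and only name a cell.

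Cells of the same type resembled each other little more than cells of different types. The correlation of log2(CPM + 1) over genes had a median of 0.21 among the 91 pairs of PV cells, 0.20 among the 300 pairs of pyramidal cells and 0.18 among the 350 mixed pairs. The most similar cell was of the same type for 12 of 14 PV cells and 20 of 25 pyramidal cells.

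Markers of other cell types were read in PV and pyramidal cells alike. Microglial genes were read in 11 PV and 20 pyramidal cells, with all 10 listed genes found in either type, at 0 to 11983 CPM summed over the list in PV cells and 0 to 25097 CPM in pyramidal cells. Astrocyte genes summed to 0 to 26916 CPM in PV cells, where 8 of 12 were read and Gfap, Aqp4, Gjb6 and Fgfr3 were at 0. In pyramidal cells they summed to 0 to 22679 CPM, with 10 of 12 read and Gfap and Aldh1l1 at 0. Oligodendrocyte genes reached 6916 CPM in a PV cell and 3764 CPM in a pyramidal cell, with Olig2 and Opalin at 0 in both types. Of 10 endothelial and pericyte genes, 1 was read in PV cells and 3 in pyramidal cells, at no more than 11.9 CPM in a PV cell and 196.8 CPM in a pyramidal cell. No member of these 4 lists was past the threshold defined below, and their part in the results was not tested. Of 8 somatostatin interneuron genes, 4 were read in PV cells, in 9 of 14 cells and at up to 1557 CPM summed over the list. In pyramidal cells 3 of them were read, in 8 of 25 cells and at up to 916.8 CPM. Sst, the defining peptide, had 0 reads in the PV cells, which allows up to 0.0984 CPM, and 53 reads in 2 pyramidal cells.

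**Figure D1:**
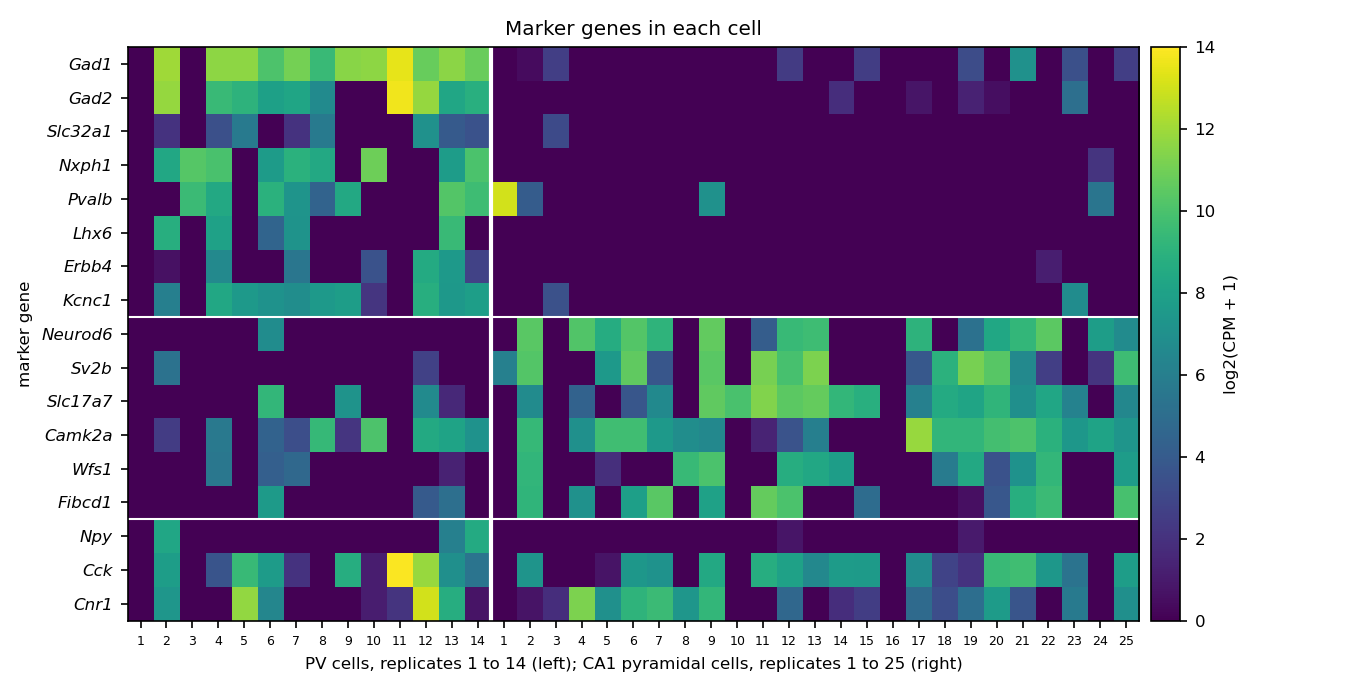
Level of 17 marker genes (rows) in each of the 14 PV cells (left of the white line) and 25 pyramidal cells (right), as log2(CPM + 1) by colour. Gad1 is read in 12 of 14 PV cells, Neurod6 in 16 of 25 pyramidal cells and Pvalb in 8 PV and 4 pyramidal cells. PV replicates 5, 11 and 12 stand out for Cck or Cnr1.

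A gene was considered when it reached 10 CPM pooled over either type, which left 10313 of 23337 genes. It counted as past the threshold when its ratio between the types was at least 4-fold by pooled CPM and by the mean of per-cell CPM, and when at least 50% of the thinned cells of the higher type had a read. By this rule 271 genes, 2.63% of those considered, were higher in PV cells, and 72 genes, 0.698%, were higher in pyramidal cells. Those shares are the background for the counts per gene list below. List medians cover the genes considered alone, so members low in both types do not enter them. Where leaving out 1 cell ended a call or moved a ratio past the threshold by over 1.5 times, that cell and the pooled ratio without it are given. Calls that ended with a log2 ratio still beyond 2 in size failed on the mean of per-cell CPM or the share of cells. With the ratio alone and no demand on the share of cells, 1807 genes were higher in PV cells and 1504 in pyramidal cells, so that the PV share of the calls was 54.6% in place of 79.0%. The median log2 ratio, always PV over pyramidal, was 0.12 over all genes considered by pooled CPM and -0.05 by the mean of cells.

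None of these genes separated the types cell by cell, since no gene past the threshold had a read in every cell of the higher type. With as few as 380 genes read in a PV cell and 276 in a pyramidal cell, few genes could have one. Nothing about these genes in particular is read from it. The lowest per-cell value was 0 in PV and in pyramidal cells for every gene past the threshold, so only medians and highest values are given below. Among the 271 genes higher in PV cells, 17 had no read in any pyramidal cell, and 262 had a median of 0 CPM over pyramidal cells. Among the 72 genes higher in pyramidal cells, 1 had no read in PV cells and 43 had a median of 0 CPM there. Of these 72, 6 had a median of 0 CPM over pyramidal cells as well. The median pyramidal cell had a read of only 2784 genes and the median PV cell of 4511. The same counts over all genes considered were not made, so nothing is read from these. Without the 7 cells against their label the counts were 496 and 94, of which 234 and 61 were in the first sets. Without the 8 cells of fewer than 1000 genes they were 640 and 81, with 240 and 60 in common. Without PV replicate 7 they were 279 and 70. Spike-in status was uneven between the types, and among the named genes described below some calls did not hold within cells of 1 status. Of the 48 higher in PV cells, Abat, Slc38a1, Kcna1, Cacnb4, Syt13, Negr1, Pcdh7, Ndufs4, Uqcrfs1, Btg2 and Ier2 were not past the threshold among cells with spike-in. Among cells without it, Gpr83, Kcna3, Kcnip1, Sv2a, Syt13, Lrrtm3, Pcdh7, Atp1b3, Ndufs5, Btg2 and Ier2 were not. Of the 26 higher in pyramidal cells, Cacna1e and Ncam1 were not past it among cells with spike-in, and Wfs1, Gabra2, Scn3b, Ncan and Arc among cells without.

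**Figure D2:**
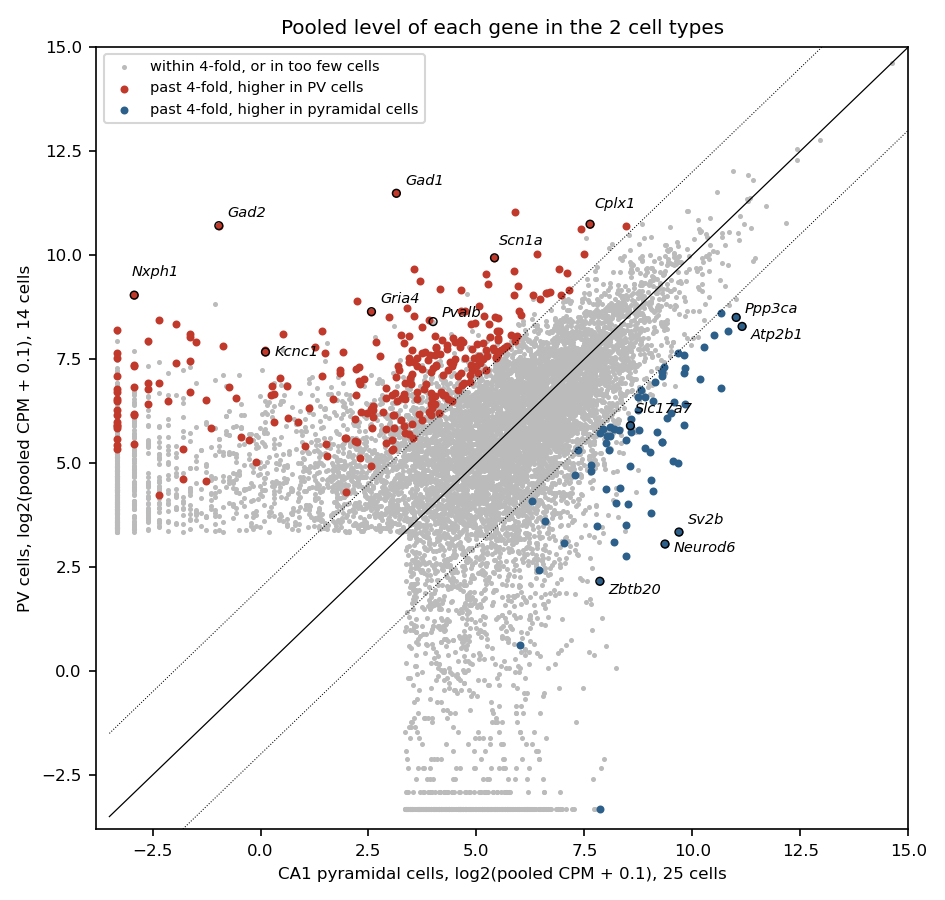
Pooled level of the 10313 genes considered, PV cells on the vertical axis and CA1 pyramidal cells on the horizontal axis, both as log2(pooled CPM + 0.1). Coloured points are the 271 genes higher in PV cells and the 72 higher in pyramidal cells, dotted lines mark a 4-fold ratio, and grey points beyond the lines failed on the share of cells or on the mean of per-cell CPM.

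Genes for making, loading and clearing GABA were mostly higher in PV cells. Of the 7 listed, 6 were higher in PV cells and none in pyramidal cells, with a median log2 ratio of 5.13. Gad1 and Gad2 encode the glutamate decarboxylases that make GABA. Gad1 (chr2:70553072-70602014, plus strand, GRCm38, GENCODE M21) had a median of 2538 CPM and a highest value of 11644 CPM in PV cells, against 0 and 136.6 CPM in pyramidal cells. It was read in 12 of 14 PV and 8 of 25 pyramidal cells, and the pooled levels of 2863 and 8.75 CPM gave a ratio of 327-fold (95% interval 291 to 370). Its log2 ratio of 8.35 was 10.96 without pyramidal replicate 21, the pyramidal cell with the most Gad1. Gad2 (chr2:22622205-22693874, plus strand) had a median of 306.7 CPM and a highest value of 13257 CPM in PV cells, against 0 and 33.9 CPM in pyramidal cells. It was read in 10 PV and 5 pyramidal cells at 1669 and 0.412 CPM pooled, a log2 ratio of 11.98 that was 11.33 without PV replicate 2 and 13.09 without pyramidal replicate 23.

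Slc32a1, the vesicular GABA transporter, was lower in level, with a highest value of 134.1 CPM in PV cells and 7.68 CPM in the 1 pyramidal cell that had a read. Its pooled levels were 24.3 CPM in PV cells and 0.190 CPM in pyramidal cells, a log2 ratio of 7.00 that was 5.78 without PV replicate 12 and, by the floor, at least 7.96 without pyramidal replicate 3. Without the cells against their label it was at 9.12 and 0 CPM and no longer past the threshold. Abat, the GABA transaminase, had 741.4 CPM in PV cells against 37.3 CPM in pyramidal cells, a log2 ratio of 4.31 that was 6.06 without pyramidal replicate 13. Slc38a1, a neutral amino acid transporter, had 439.9 CPM in PV cells against 33.1 CPM in pyramidal cells. Its log2 ratio was 3.73, or 4.59 without pyramidal replicate 13, and its call ended without PV replicate 12, at 3.22. Aldh5a1, which acts after Abat, had 170.8 CPM in PV cells and 83.4 CPM in pyramidal cells and was not past the threshold.

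On the glutamate side, Slc17a7, the vesicular glutamate transporter of cortical and hippocampal principal neurons (chr7:45163949-45176142, plus strand), was the member of a list of 5 past the threshold. It was read in 4 of 14 PV cells, up to 627.7 CPM, and in 19 of 25 pyramidal cells, up to 2597 CPM. Pooled levels were 59.5 CPM in PV cells and 378.7 CPM in pyramidal cells, a log2 ratio of -2.67 that was -4.76 without PV replicate 6. Gls2, a glutaminase, had 28.8 and 24.5 CPM in PV and pyramidal cells, with log2 ratios from -1.02 to 1.45 over leaving out each cell.

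The 250 bases before the RefSeq start of 5 genes that carry the contrast are printed 5′ to 3′ from the RefSeq promoter table for GRCm38.p6: the 2 GABA-making enzymes and Nxph1 on the PV side, and Slc17a7 and Neurod6 on the pyramidal side. They were taken among the markers with a single listed start. Capitals mark any match, on either strand, to the TATA box TATAAA, to the homeodomain core TAATTA, to the E-boxes CAGATG and also CAGCTG, or to the cyclic AMP response element TGACGTCA. No match overlapped another here.
Gad1: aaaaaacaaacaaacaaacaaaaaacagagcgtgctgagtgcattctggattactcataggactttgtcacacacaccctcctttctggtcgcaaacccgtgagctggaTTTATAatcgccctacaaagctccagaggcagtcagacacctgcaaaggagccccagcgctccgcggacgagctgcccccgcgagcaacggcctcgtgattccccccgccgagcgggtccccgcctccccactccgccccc
Gad2: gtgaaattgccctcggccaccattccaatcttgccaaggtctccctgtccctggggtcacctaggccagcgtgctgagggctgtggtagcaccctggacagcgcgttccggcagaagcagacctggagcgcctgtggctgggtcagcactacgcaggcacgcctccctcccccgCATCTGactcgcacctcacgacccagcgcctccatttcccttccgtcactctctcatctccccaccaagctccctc
Nxph1: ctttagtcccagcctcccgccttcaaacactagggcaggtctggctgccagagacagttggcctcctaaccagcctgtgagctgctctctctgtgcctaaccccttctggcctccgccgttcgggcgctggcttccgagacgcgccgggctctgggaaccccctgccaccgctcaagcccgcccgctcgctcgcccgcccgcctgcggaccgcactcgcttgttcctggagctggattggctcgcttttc
Slc17a7: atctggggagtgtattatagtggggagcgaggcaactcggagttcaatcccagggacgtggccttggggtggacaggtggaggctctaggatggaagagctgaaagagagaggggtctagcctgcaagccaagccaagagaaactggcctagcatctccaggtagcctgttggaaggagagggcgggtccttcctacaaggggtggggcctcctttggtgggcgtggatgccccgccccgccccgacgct
Neurod6: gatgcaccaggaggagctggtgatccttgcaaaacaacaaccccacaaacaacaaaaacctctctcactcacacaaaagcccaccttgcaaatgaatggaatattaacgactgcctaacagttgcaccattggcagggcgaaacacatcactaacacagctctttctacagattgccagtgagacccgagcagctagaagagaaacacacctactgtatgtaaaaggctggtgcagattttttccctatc
The windows lie at chr2:70561879-70562128 (plus strand, Gad1), chr2:22622077-22622326 (plus strand, Gad2), chr6:8949769-8950018 (plus strand, Nxph1), chr7:45163671-45163920 (plus strand, Slc17a7) and chr6:55681264-55681513 (minus strand, Neurod6). These RefSeq starts are not always the ends of the GENCODE gene spans given with each gene: the Gad1 and Nxph1 windows lie inside those spans, the Gad2 window runs across the start of its span, and the other 2 lie outside theirs. The Gad1 window held TATAAA on the minus strand, and the Gad2 window held CAGATG on the minus strand, 71 to 76 bases before the start. The windows of Nxph1, Slc17a7 and Neurod6 held none of the 5, which says only that these letters are not in these windows. Over all 32851 windows in the table, TATAAA was in 12.4%, CAGATG in 14.4%, the other E-box CAGCTG in 13%, the homeodomain core TAATTA in 4.84% and the element TGACGTCA in 1.55%. Over the 10664 windows of the genes considered, TATAAA was in 6.18% and CAGATG in 9.70%. Only 37 of the 48 named genes higher in PV cells and 19 of the 26 higher in pyramidal cells had a window, so no share over either set is given. The windows differ in base composition, from 46.0% G and C in Neurod6 to 66.8% in Nxph1.

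Of 16 genes listed as markers of fast-spiking PV interneurons, 15 were considered, 6 were higher in PV cells and none in pyramidal cells, with a median log2 ratio of 7.69. Without the cells against their label, which were picked by genes of this list, 11 were higher in PV cells, where the share over all genes considered was 4.84%. Pvalb itself (chr15:78191114-78206400, minus strand) was not past the threshold. It was read in 8 of 14 PV cells, with a median of 87.3 CPM and a highest value of 1220 CPM, and in 4 of 25 pyramidal cells, where the highest value of 8360 CPM was that of replicate 1, the shallowest cell. Pooled, it had 337.5 CPM in PV cells against 15.9 CPM in pyramidal cells, a ratio with a 95% interval of 19.5 to 23.3, whereas the means of per-cell CPM were 295.9 and 342.1. Without the cells against their label the pooled levels were 401.3 CPM in PV cells and 8.12 CPM in pyramidal cells and Pvalb was past the threshold, but those cells were picked by Pvalb itself.

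Nxph1, which encodes a secreted ligand of neurexins (chr6:8948431-9249032, plus strand), was read in 9 of 14 PV cells, with a median of 274.6 CPM and a highest value of 1924 CPM. In pyramidal cells it had 1 read, in replicate 24. Pooled levels of 524.6 and 0.0317 CPM gave a ratio of 16551-fold with a counting interval of 2970 to 653761. The log2 ratio of 14.01 became 12.42 without pyramidal replicate 24, where the floor of 3 reads stands in for 0. Kcnc1, a Kv3 channel subunit (chr7:46396497-46438704, plus strand), was read in 11 PV cells, with a median of 159.9 CPM, and in 2 pyramidal cells. It had 203.4 CPM pooled in PV cells and 0.983 CPM in pyramidal cells, a log2 ratio of 7.69 that was 9.64 without pyramidal replicate 23. Ank1, an ankyrin that links membrane proteins to the spectrin skeleton, had 169.8 CPM in PV cells and 0.159 CPM in pyramidal cells, and 79.8% of its PV reads came from replicate 10. Its log2 ratio of 10.06 was 7.80 without that cell and, by the floor, at least 10.66 without pyramidal replicate 2. Btbd11 had 239.3 CPM in PV cells against 0.254 CPM in pyramidal cells, a log2 ratio of 9.88 that was 12.87 without pyramidal replicate 18. Cplx1, a complexin that clamps and times vesicle fusion, had 1710.4 CPM against 198.0 CPM, and Kcna1, a Kv1 channel subunit, had 527.1 CPM against 78.9 CPM, again with PV cells first.

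Erbb4, a neuregulin receptor, had 83.8 CPM in PV cells, in 7 of them, and 2 reads in pyramidal cells, and it missed the threshold on the share of cells. Lhx6, a LIM homeodomain factor of interneurons born in the medial ganglionic eminence, had 7476 reads in 5 PV cells, up to 727.9 CPM, and none in pyramidal cells, at least 2577-fold higher by the floor of 3 reads over the type. It missed the threshold on the share of cells too. Of 11 interneuron transcription factors considered, with a median log2 ratio of 8.21, 1 was higher in PV cells by the rule. This was Satb1, a chromatin organiser downstream of Lhx6. It had 142.7 CPM in PV cells and 25.04 CPM in pyramidal cells, a log2 ratio of 2.51 that was 8.83 without pyramidal replicate 2, and its call ended without PV replicate 4, at 1.54. Without the cells against their label 6 of the list were higher in PV cells, where the share over all genes considered was 4.84%. Without the cells of few genes 7 were, where that share was 6.20%. Over leaving out each cell the count ran from 0 to 3. Maf, a factor of interneurons, had 40.3 CPM in PV cells against 18.9 CPM in pyramidal cells and was not past the threshold, with log2 ratios from -0.01 without PV replicate 13 to 8.58 without pyramidal replicate 5.

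Cck and Cnr1 marked a few PV cells. Cck was read in 11 of 14 PV cells, with a median of 83.1 CPM and a highest value of 15689 CPM, and in 18 of 25 pyramidal cells, with a median of 107.9 CPM and a highest value of 838.0 CPM. Cnr1, the cannabinoid receptor, had a median of 0.902 CPM and a highest value of 8531 CPM in PV cells, and a median of 11.7 CPM and a highest value of 2379 CPM in pyramidal cells. The cells against their label were chosen partly by these genes, and without them Cck had 113.7 CPM in PV cells against 220.3 CPM in pyramidal cells, and Cnr1 111.6 CPM against 275.1 CPM. Npy, a peptide of several interneuron types, was read in 3 PV cells, up to 373.9 CPM, and had 3 reads in pyramidal cells. None of the 3 somatostatin and 6 CCK and VIP interneuron markers considered was past the threshold. Over these members the median log2 ratios were 10.35 and 5.26. The lists hold 8 and 10 genes, and those under 10 CPM in both types, Sst among them, do not enter the medians. The somatostatin median is the ratio of Npy, with 63.5% of its PV reads in replicate 2. Nothing is read from these medians.

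All 18 listed CA1 pyramidal markers were considered, 9 were higher in pyramidal cells and none in PV cells, with a median log2 ratio of -3.54. Neurod6, a bHLH factor of cortical and hippocampal projection neurons (chr6:55677822-55681263, minus strand), was read in 1 PV cell, replicate 6, at 110.6 CPM, and in 16 of 25 pyramidal cells, with a median of 217.9 CPM and a highest value of 1567 CPM. Pooled levels were 8.20 CPM in PV cells and 659.4 CPM in pyramidal cells, a log2 ratio of -6.33 that was -12.60 or lower without PV replicate 6, a bound by the floor since no PV read was left. Sv2b, a synaptic vesicle glycoprotein (chr7:75114894-75309262, minus strand), was read in 2 PV cells, up to 37.5 CPM, and in 17 pyramidal cells, with a median of 66.6 CPM and a highest value of 2458 CPM. Pooled levels came to 10.03 CPM in PV cells and 824.9 CPM in pyramidal cells, a log2 ratio of -6.36 that was -9.95 without PV replicate 2. Wfs1, an endoplasmic reticulum protein used as a CA1 marker, had 11.02 CPM in PV cells and 220.0 CPM in pyramidal cells, a log2 ratio of -4.32 that was -6.63 without PV replicate 4. Fibcd1, another CA1 marker, was read in 3 PV and 13 pyramidal cells at 19.7 and 415.3 CPM and missed the threshold on the share of cells. Camk2a, a subunit of calcium/calmodulin kinase II, had 155.7 CPM in PV cells, in 10 of them, and 622.6 CPM in pyramidal cells, in 19, and was not past the threshold.

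Of 14 pyramidal transcription factors considered, 4 were higher in pyramidal cells and none in PV cells. Besides Neurod6 these were Zbtb20, Zfp238 (current symbol Zbtb18) and Bcl11b. Zbtb20, a zinc finger factor of hippocampal pyramidal identity, was read in 2 PV cells, up to 102.4 CPM, and in 16 pyramidal cells, up to 1091 CPM. Its pooled levels of 4.36 and 231.7 CPM in PV and pyramidal cells gave a log2 ratio of -5.73, -11.73 without PV replicate 8 and -5.01 without pyramidal replicate 5. Zfp238 had 55.7 CPM in PV cells and 437.4 CPM in pyramidal cells, and Bcl11b, a zinc finger factor of projection neurons, 12.1 CPM in PV cells and 96.1 CPM in pyramidal cells. Their log2 ratios of -2.97 and -2.99 were -4.65 and -4.72 without PV replicate 6. Cux1, a homeodomain factor, had 30.5 CPM in PV cells and 24.98 CPM in pyramidal cells, with a log2 ratio of 0.29 that was 1.56 without pyramidal replicate 6.

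**Figure D3:**
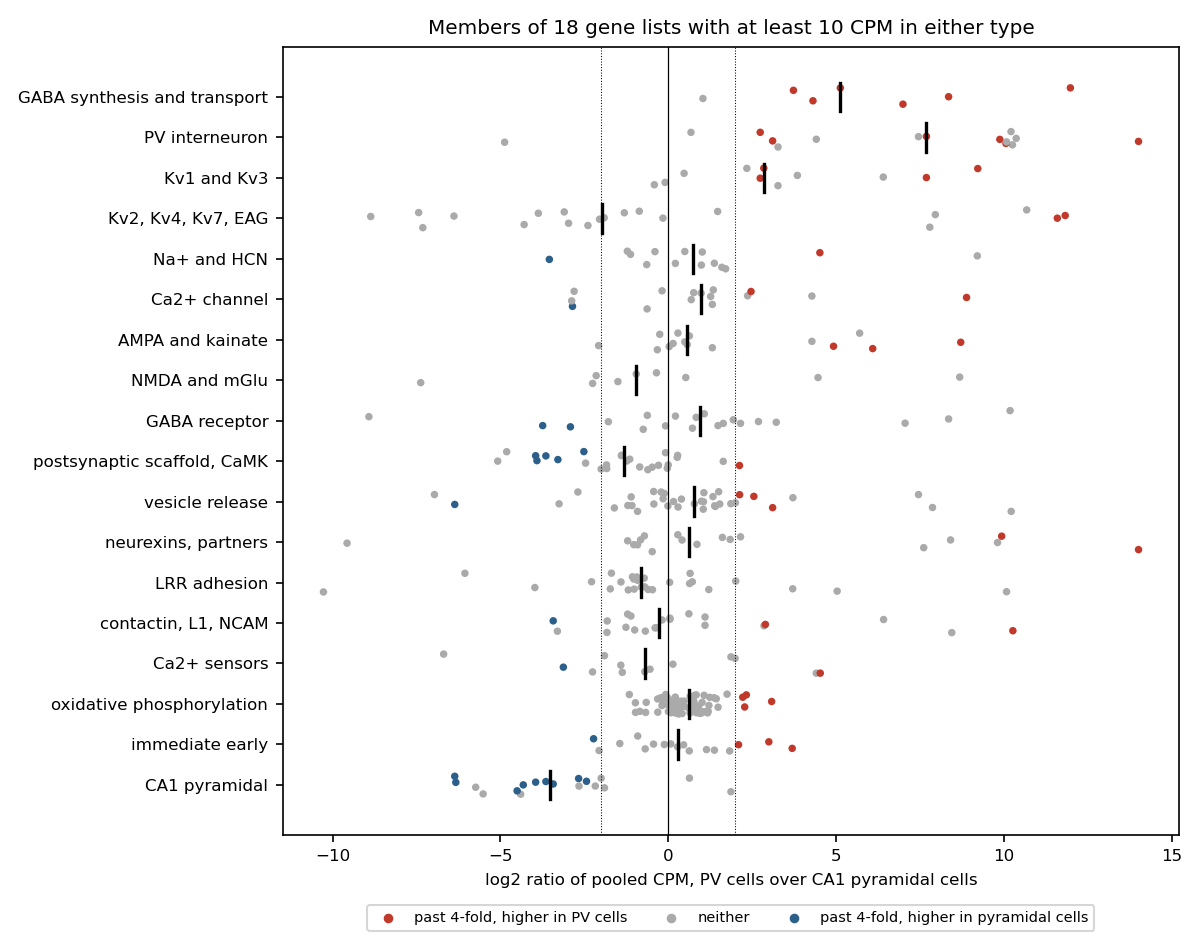
Log2 ratio of pooled CPM, PV over pyramidal cells, for the members of 18 gene lists that reached 10 CPM in either type. Each point is a gene, short black bars are list medians and dotted lines mark a 4-fold ratio. Medians run from 7.69 for PV interneuron markers to -3.54 for CA1 pyramidal markers, and Kv1 and Kv3 channels, at 2.85, lie above the other channel and receptor lists shown.

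Of 11 Kv1 and Kv3 subunits and their beta subunits considered, 4 were higher in PV cells and none in pyramidal cells, with a median log2 ratio of 2.85. Without the cells against their label 7 were higher in PV cells, where the share over all genes considered was 4.84%. Kcna2, which forms Kv1 channels with Kcna1, was read in 8 PV and 3 pyramidal cells, at 230.8 and 32.1 CPM pooled, a log2 ratio of 2.85 that was 4.25 without pyramidal replicate 21. Kcna1 was read in 10 PV and 5 pyramidal cells, with a log2 ratio of 2.74 that was 3.53 without pyramidal replicate 13 and 3.56 without pyramidal replicate 19. Its call ended without PV replicate 10, at 2.51. Kcna3 had 1735 reads in 7 PV cells, up to 329.2 CPM, and none in pyramidal cells, at least 598-fold higher. The beta subunit gene Kcnab2 and the Kv1 gene Kcna4 had 144.4 and 31.9 CPM in PV cells and 192.5 and 23.01 CPM in pyramidal cells. Their closeness rested on 1 cell each, since the log2 ratio of Kcnab2, -0.41, was 1.27 without pyramidal replicate 21 and that of Kcna4, 0.47, was -3.42 without PV replicate 2.

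The list of Kv2, Kv4, Kv7 and EAG-family channels and their auxiliary subunits had a median log2 ratio of -1.98 over 20 genes, and 2 of them were past the threshold, both higher in PV cells and both auxiliary subunits of Kv4 channels. Dpp10 (chr1:123321471-124045559, minus strand) had 8973 reads in 8 PV cells, with a median of 146.2 CPM and a highest value of 949.0 CPM, and none in pyramidal cells, at least 3093-fold higher. Kcnip1 (chr11:33629339-33993152, minus strand) had 346.0 CPM in PV cells, in 8 of them, and 3 reads in pyramidal cells, a ratio of 3639-fold with a counting interval of 1245 to 17648. Its log2 ratio of 11.83 was 10.44 without PV replicate 2 and 13.32 without pyramidal replicate 19. Of 11 calcium-activated, inward rectifier and tandem-pore potassium channels none was past the threshold. Without the cells of few genes 2 were higher in PV cells, where the share over all genes considered was 6.20%. Kcnj3 had 14.4 CPM in PV cells and 20.95 CPM in pyramidal cells.

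Among 14 sodium and HCN channel genes, 1 was higher in each type. Scn1a, a sodium channel alpha subunit known from human epilepsies (chr2:66270778-66440840, minus strand), was read in 11 of 14 PV cells, with a median of 545.5 CPM and a highest value of 2860 CPM. In pyramidal cells it was read in 10 of 25, with a highest value of 348.7 CPM. Pooled levels of 977.2 and 42.6 CPM gave a 22.9-fold ratio (95% interval 21.7 to 24.2), and its log2 ratio of 4.52 was 6.04 without pyramidal replicate 7. Scn3b, a sodium channel beta subunit, had 41.1 CPM in PV cells and 478.8 CPM in pyramidal cells, a log2 ratio of -3.54 that was -5.00 without PV replicate 12. Its call ended with a second random thinning, so the share of cells was at the edge.

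Of 15 calcium channel subunits considered, 2 were higher in PV cells and 1 in pyramidal cells. Cacna2d2, an alpha2delta subunit (chr9:107399612-107529343, plus strand), was read in 8 PV cells, up to 973.6 CPM, and in 2 pyramidal cells, up to 2.53 CPM. Its pooled levels were 105.2 and 0.222 CPM in PV and pyramidal cells, a log2 ratio of 8.89 that was 8.28 without PV replicate 12 and 11.58 without pyramidal replicate 20. Cacnb4, a beta subunit, had 757.7 CPM in PV cells and 137.1 CPM in pyramidal cells, a log2 ratio of 2.47. Cacna1e, which forms R-type channels, had 27.9 CPM in PV cells and 201.4 CPM in pyramidal cells, a log2 ratio of -2.85 that was -5.24 without PV replicate 2. Cacna1g and Cacna2d3 had pooled levels of 53.4 and 44.3 CPM in PV cells and 33.2 and 68.6 CPM in pyramidal cells, and over leaving out each cell their log2 ratios ran from 0.44 to 1.11 and from -1.44 to 0.34.

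Among 15 AMPA and kainate receptor genes and auxiliary subunits, 3 were higher in PV cells and none in pyramidal cells, with a median log2 ratio of 0.57. Gria4, the AMPA subunit of fast receptors (chr9:4417896-4796234, minus strand), was read in 11 PV cells, with a median of 125.6 CPM and a highest value of 2259 CPM, and in 4 pyramidal cells, up to 83.8 CPM. Its pooled levels of 398.2 and 5.83 CPM gave a 68.3-fold ratio (95% interval 59.0 to 79.4), and a log2 ratio of 6.09 that was 7.00 without pyramidal replicate 4 and 7.04 without pyramidal replicate 22. Grik3, a kainate receptor subunit, had 1220 reads in 7 PV cells, up to 85.7 CPM, and none in pyramidal cells, at least 421-fold higher. Neto2, an auxiliary subunit of kainate receptors, had 93.4 CPM in PV cells and 3.08 CPM in pyramidal cells, a log2 ratio of 4.93 that was 5.68 without pyramidal replicate 17 and 6.02 without pyramidal replicate 20. The other AMPA subunits, given here for the contrast with Gria4 although the naming rule leaves them out, were not past the threshold. Gria1 had 1385 CPM in PV cells and 1650.4 CPM in pyramidal cells, Gria3 394.5 and 322.9 CPM, and Gria2, which blocks calcium entry through the receptor, 492.2 and 2074 CPM, PV cells first each time. Cnih2 and Grik2 had 182.8 and 98.2 CPM in PV cells and 129.8 and 96.1 CPM in pyramidal cells, with log2 ratios from -0.08 to 0.82 and from -0.91 to 0.67 over leaving out each cell.

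Of 9 NMDA and metabotropic glutamate receptor genes none was past the threshold, and the list's median log2 ratio was -0.95. Grin1, the obligatory NMDA subunit, had a log2 ratio of 0.52, from -0.07 to 1.04 over leaving out each cell. Grm5 had 335.5 CPM in PV cells and 649.6 CPM in pyramidal cells. Grin2b and Grin2a, 2 NMDA subunits outside the naming rule, had 227.1 and 0.557 CPM in PV cells against 1007 and 92.5 CPM in pyramidal cells, in 20 and 8 thinned pyramidal cells of 23.

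Of 20 GABA receptor and inhibitory postsynapse genes, 2 were higher in pyramidal cells and none in PV cells, while the median log2 ratio was 0.95. Gabra5, the alpha subunit of extrasynaptic GABA-A receptors in hippocampal pyramidal cells (chr7:57407672-57510059, minus strand), was read in 4 PV cells, up to 372.9 CPM, and in 15 pyramidal cells, with a median of 7.59 CPM and a highest value of 3352 CPM. Pooled levels came to 38.6 CPM in PV cells and 516.0 CPM in pyramidal cells, a log2 ratio of -3.74 that was -5.45 without PV replicate 6. Gabra2, another alpha subunit, had 47.1 CPM in PV cells, in 3 of them, and 355.4 CPM in pyramidal cells, in 17, a log2 ratio of -2.91 that was -4.85 without PV replicate 12.

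Of 26 postsynaptic and calcium/calmodulin signalling proteins considered, 5 were higher in pyramidal cells and 1 in PV cells, with a median log2 ratio of -1.31. Ppp3ca, the catalytic subunit of calcineurin, was the highest of these in level. It was read in 10 of 14 PV cells, with a median of 109.2 CPM and a highest value of 843.5 CPM, and in 21 of 25 pyramidal cells, with a median of 1309 CPM and a highest value of 5423 CPM. Pooled levels were 361.9 and 2067 CPM in PV and pyramidal cells, a log2 ratio of -2.51 that was -3.37 without PV replicate 2. Nrgn, neurogranin, which binds calmodulin in spines, was read in 9 PV and 21 pyramidal cells, at 20.6 and 257.8 CPM pooled, a log2 ratio of -3.65 that was -4.33 without PV replicate 6. Itpka, a kinase of inositol trisphosphate found in spines, had 8.36 CPM in PV cells and 129.3 CPM in pyramidal cells, a log2 ratio of -3.95 that was -7.83 without PV replicate 6. Baiap2, an actin-linked scaffold, had 21.11 CPM in PV cells and 317.8 CPM in pyramidal cells, and its log2 ratio of -3.91 was -8.32 without PV replicate 6. Camkv, a kinase-like protein outside the naming rule, completes the 5, with 73.9 CPM in PV cells and 721.7 CPM in pyramidal cells. Camk2d, a calcium/calmodulin kinase subunit, had 217.1 CPM in PV cells and 49.8 CPM in pyramidal cells, a log2 ratio of 2.12 that was 5.61 without pyramidal replicate 6. Its call ended without PV replicate 12, at 0.91, and without pyramidal replicates 2 or 5, at 1.98 each. Camk2b and Homer1 had 302.0 and 98.3 CPM in PV cells and 420.6 and 80.9 CPM in pyramidal cells, and no single cell moved their ratios by over 1.5 times.

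Among 13 calcium buffers and sensors, Ncald was higher in PV cells, at 571.2 CPM in PV cells and 24.7 CPM in pyramidal cells. Pyramidal replicate 9 held 99.5% of the pyramidal reads, and the log2 ratio of 4.53 was 12.07 without it and 3.54 without PV replicate 2. Hpcal4, of the same sensor family, was higher in pyramidal cells, at 87.7 CPM in PV cells and 765.3 CPM in pyramidal cells, with a log2 ratio of -3.13 that was -5.94 without PV replicate 2 and -2.44 without pyramidal replicate 6.

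Of 37 vesicle release proteins considered, 3 were higher in PV cells and 1, Sv2b, in pyramidal cells, with a median log2 ratio of 0.78. Cplx1 (chr5:108518554-108550024, minus strand) was read in 11 of 14 PV cells, with a median of 797.8 CPM and a highest value of 6444 CPM, and in 13 of 25 pyramidal cells, with a median of 1.40 CPM and a highest value of 1769 CPM. Its log2 ratio of 3.11 lay between 2.90 and 3.56 over leaving out each cell. Sv2a, a relative of Sv2b, went opposite to it, at 1049 CPM in PV cells and 179.0 CPM in pyramidal cells. Its call ended without PV replicate 4 or 9, at log2 ratios of 1.88 and 2.54. Syt13, a synaptotagmin, had 195.6 CPM in PV cells and 44.8 CPM in pyramidal cells, and its call ended without any of PV replicates 4, 5 and 13 or pyramidal replicates 5 and 6, at log2 ratios of 1.91, 2.07, 1.95, 1.98 and 1.98. Pclo, an active zone scaffold, and Syt11 had 436.4 and 1004 CPM in PV cells and 439.7 and 819.9 CPM in pyramidal cells, with log2 ratios from -0.88 to 0.55 and from -0.37 to 0.54 over leaving out each cell.

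Neurexins are presynaptic adhesion proteins that bind neuroligins and LRRTMs across the synaptic cleft, and they also bind cerebellins and neurexophilins. Of 23 genes for neurexins and their partners, 18 were considered, 2 were higher in PV cells and none in pyramidal cells, with a median log2 ratio of 0.63. Among the neurexins, Nrxn2 had 14.7 CPM in PV cells and 24.03 CPM in pyramidal cells, and Nrxn3 681.1 CPM in PV cells and 189.6 CPM in pyramidal cells. Nrxn3 had a median of 476.9 CPM over PV cells and 19.8 CPM over pyramidal cells, but its log2 ratios of 1.85 pooled and 1.07 by the mean of cells stayed under 4-fold. The neuroligins Nlgn1 and Nlgn3, with log2 ratios of -0.92 and -0.48, were not past the threshold. Nlgn2, the neuroligin of inhibitory synapses, had 47.4 CPM in PV cells and 10.7 CPM in pyramidal cells, and by the mean of cells its log2 ratio was 1.44.

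Several partners of neurexins had no read in pyramidal cells. Beside Nxph1, which had 1 such read, the related Nxph2 had 568 reads in 1 PV cell, and Cbln4, a cerebellin, had 2610 reads in 4 PV cells, up to 340.3 CPM. Neither had a read in pyramidal cells, and neither was in enough PV cells to pass. Of the LRRTMs, postsynaptic partners of neurexins, Lrrtm3 (chr10:63928472-64090277, minus strand) passed, with 2841 reads in 8 PV cells, a median of 14.25 CPM and a highest value of 595.1 CPM, and no read in pyramidal cells, at least 979-fold higher. Lrrtm4 had 989 reads in 5 PV cells and none in pyramidal cells. Lrrtm1 and Lrrtm2 were read in both types, at 82.7 and 173.7 CPM in PV cells and 191.2 and 96.02 CPM in pyramidal cells. Mdga1, which blocks neuroligins, had no read in PV cells and 2360 reads in 9 pyramidal cells, up to 1030.4 CPM, while Mdga2 was read in 6 PV and 4 pyramidal cells at 48.5 and 98.9 CPM. The calsyntenins Clstn1, Clstn2 and Clstn3 had 433.4, 130.5 and 196.2 CPM in PV cells and 355.7, 42.6 and 147.5 CPM in pyramidal cells.

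Of 27 other synaptic adhesion proteins with leucine-rich repeats, latrophilins, LAR phosphatases and their partners, none was past the threshold. Of 22 contactins, L1 proteins, SynCAMs and NCAMs, 2 were higher in PV cells and 1 in pyramidal cells. Cntnap4, a contactin-associated protein of interneurons (chr8:112570043-112882717, plus strand), was read in 9 of 14 PV cells, with a median of 51.7 CPM and a highest value of 1446 CPM, and in 1 pyramidal cell with 7 reads. Its pooled level in PV cells was 274.0 CPM, and its log2 ratio of 10.27 became a lower bound of 11.40 by the floor without pyramidal replicate 19. Negr1 had 161.3 CPM in PV cells and 21.7 CPM in pyramidal cells, a log2 ratio of 2.89 that was 3.50 without pyramidal replicate 11 and 3.67 without pyramidal replicate 25. Its call ended without PV replicate 10, at 2.62. Ncam1, the neural cell adhesion molecule, had 85.04 CPM in PV cells and 915.0 CPM in pyramidal cells, a log2 ratio of -3.43 that was -4.21 without PV replicate 4. Its call ended without pyramidal replicate 7 or 25, at -3.21 and -3.20. Of 16 cadherins and protocadherins, Pcdh7 alone was past the threshold, at 102.6 CPM in PV cells and 15.4 CPM in pyramidal cells, a log2 ratio of 2.73 that was 5.30 without pyramidal replicate 13. Its call ended without PV replicate 9, at 2.38.

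Of 20 ion pumps and chloride transporters, Atp1b3, a sodium pump beta subunit, was higher in PV cells, at 156.2 CPM against 15.9 CPM in pyramidal cells, a log2 ratio of 3.29 that was 4.17 without pyramidal replicate 5. Atp2b1, a plasma membrane calcium pump (chr10:98914406-99026143, plus strand), was higher in pyramidal cells. It was read in 9 of 14 PV cells, up to 917.9 CPM, and in 21 of 25 pyramidal cells, with a median of 1854 CPM and a highest value of 7885 CPM. Its pooled levels were 311.4 CPM in PV cells and 2273 CPM in pyramidal cells, and its log2 ratio of -2.87 lay between -3.23 and -2.65 over leaving out each cell. Of 71 nuclear genes of oxidative phosphorylation, 4 were higher in PV cells and none in pyramidal cells, with a median log2 ratio of 0.61. These were Ppargc1a, a coactivator of mitochondrial genes, Ndufs4 and Ndufs5 of complex I and Uqcrfs1 of complex III, with log2 ratios of 2.22, 2.33, 2.28 and 3.08. Without pyramidal replicate 21 that of Ppargc1a was 6.36, without replicate 25 that of Ndufs4 was 3.22 and without replicate 12 that of Uqcrfs1 was 3.68. All 4 calls ended without some single PV cells, namely replicate 10 or 12 for Ppargc1a, at 1.71 and 1.99, replicate 11 or 13 for Ndufs4, at 2.24 and 1.95, and replicate 3 or 13 for Ndufs5, at 2.25 and 1.92. That of Uqcrfs1 ended without PV replicate 2, 4, 6 or 10, at 2.67, 2.97, 3.08 and 3.06. Without the cells of few genes 1 of the list was higher in PV cells, where the share over all genes considered was 6.20%.

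Of 7 matrix genes of perineuronal nets considered, Ncan, the proteoglycan neurocan, was past the threshold, with 56.6 CPM in PV cells and 242.9 CPM in pyramidal cells. Its log2 ratio of -2.10 was -3.75 without PV replicate 12. The call ended without PV replicate 2, 4 or 14, at -1.69, -1.90 and -1.99, and without pyramidal replicate 3, 7 or 20, at -1.87, -1.88 and -1.54. Hapln4 and Tnr, other components of the nets, had 113.1 and 100.2 CPM in PV cells and 35.1 and 68.0 CPM in pyramidal cells. Of 17 immediate early genes, 3 were higher in PV cells and 1 in pyramidal cells. Fosb, an activity-induced transcription factor, had 109.1 CPM in PV cells, in 8 of them, and 13.7 CPM in pyramidal cells, in 6, a log2 ratio of 3.00 that was 4.25 without pyramidal replicate 5. Ier2 and Btg2 had 48.8 and 190.4 CPM in PV cells and 3.77 and 44.6 CPM in pyramidal cells, log2 ratios of 3.69 and 2.10 that were 5.17 without pyramidal replicate 11 and 4.38 without pyramidal replicate 22. The call on Ier2 ended without PV replicate 9, at 3.67. That on Btg2 ended without PV replicate 8, 9, 13 or 14 or pyramidal replicate 2, 5, 6, 7, 20 or 25, at log2 ratios between 1.69 and 1.99. Arc, a synaptic plasticity protein, had 58.3 CPM in PV cells and 272.5 CPM in pyramidal cells, and its call ended without pyramidal replicate 2, at -1.99. Of 21 neurofilament and cytoskeletal genes, those past the threshold were Ank1 and Arc, also counted above. No member was past the threshold among neuropeptide precursors, neuromodulator receptors, and neuregulin and neurotrophin signalling genes, of which 8, 15 and 6 were considered. The median log2 ratios of these 3 lists were 8.80, 2.67 and -0.46, over the members considered alone. Neuropeptide precursors and neuromodulator receptors thus had no call although their medians lay above 0.12, the median over all genes considered. Members low in both types do not enter these medians, so no difference of a whole list is read from them. The median of the neuregulin and neurotrophin list was small in size, and no difference is read there.

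The naming rule also took up to 15 genes each way with the largest ratio of mean CPM among genes read widely in the higher type and rarely in the other. On the PV side these included several genes outside the lists. Moxd1, related to dopamine beta-hydroxylase (chr10:24223517-24302790, plus strand), had 6140 reads in 9 of 14 PV cells, with a median of 35.1 CPM and a highest value of 1823 CPM, and none in pyramidal cells, at least 2117-fold higher. Gpr83, a G protein-coupled receptor (chr9:14860210-14870789, plus strand), had 5655 reads in 8 PV cells, up to 1790.1 CPM, and none in pyramidal cells, at least 1949.5-fold higher. This bound, 10.93 on the log2 scale, was 9.86 without PV replicate 4. Pde5a, a phosphodiesterase of cyclic GMP, had 1810 reads in 8 PV cells, up to 210.5 CPM, and none in pyramidal cells. Spock3, a testican proteoglycan, Slc30a4, a zinc transporter, and Epha10, an ephrin receptor, had 242.8, 175.2 and 90.7 CPM in PV cells and 0.0634, 0.222 and 0.317 CPM in pyramidal cells. The log2 ratio of Spock3, 11.90, was 11.04 without PV replicate 4 and 12.81 or 12.89 without pyramidal replicates 19 or 23. Those of Slc30a4 and Epha10, 9.62 and 8.16, became lower bounds of 10.74 and 9.79 without pyramidal replicate 25, the pyramidal cell that held all their reads. Pxk, Ankrd45 and Heatr7a had 113.3, 84.9 and 164.7 CPM in PV cells, with 1, 2 and 1 reads in pyramidal cells, for ratios with counting intervals of 641 to 141177, 370 to 11057 and 932 to 205270.0. Their log2 ratios of 11.80, 10.39 and 12.34 were 11, 9.77 and 11.49 without PV replicates 2, 9 and 4, one cell for each gene in turn. Without pyramidal replicates 2, 17 and 8, again one for each gene, no pyramidal read was left, and the floor of 3 reads gave lower bounds of 10.08, 9.73 and 10.74.

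AI504432, with 72.2 CPM in 8 PV cells and 1 read in pyramidal replicate 17, without which its log2 ratio of 11.15 became a bound of 9.50, lies beside potassium channel genes already described. On chromosome 3 of GRCm38, Kcna3 spans chr3:107036169-107038070, AI504432 chr3:107039504-107054347 and Kcna2 chr3:107101146-107115005, all on the plus strand, and all 3 were past the threshold. Kcna3 was read in 7 PV cells, AI504432 in 8 and Kcna2 in 8, and in 0, 1 and 3 pyramidal cells.

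On the pyramidal side 14 genes qualified. Pde1a, a calmodulin-dependent phosphodiesterase, was read in 3 PV cells, up to 121.1 CPM, and in 16 pyramidal cells, with a median of 127.5 CPM and a highest value of 2027 CPM. Pooled levels came to 13.9 CPM in PV cells and 524.5 CPM in pyramidal cells, a log2 ratio of -5.24 that was -10.34 without PV replicate 12. Arpp21, a cyclic AMP-regulated phosphoprotein, had 24.2 CPM in PV cells and 525.7 CPM in pyramidal cells, and Psd3, an exchange factor of Arf proteins, 45.4 CPM in PV cells and 625.8 CPM in pyramidal cells. Their log2 ratios of -4.44 and -3.79 were -5.59 and -5.04 without PV replicate 12. Cpne6, a calcium-binding copine, and Prkcc, protein kinase C gamma, were lower in PV cells by less, at 269.7 and 220.0 CPM in PV cells and 1459 and 1227 CPM in pyramidal cells. Their log2 ratios of -2.44 and -2.48 were -3.40 without PV replicate 2 and -3.22 without PV replicate 6. Ctxn1, cortexin, had 44.6 CPM in PV cells and 256.6 CPM in pyramidal cells, a log2 ratio of -2.53 that was -3.43 without PV replicate 6.

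**Figure D4:**
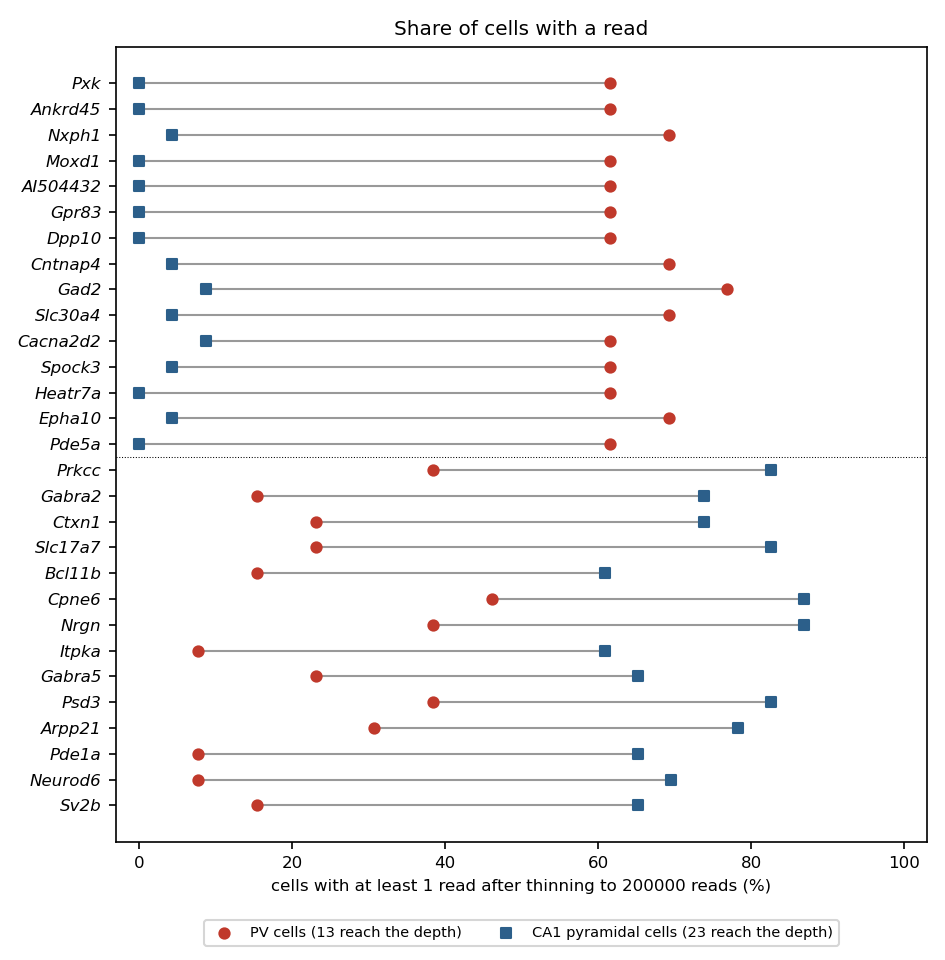
Share of PV cells (circles, 13 cells) and CA1 pyramidal cells (squares, 23 cells) with at least 1 read after thinning each cell to 200000 reads, for the 15 genes higher in PV cells (top) and the 14 higher in pyramidal cells (bottom) taken by ratio. These shares were part of the choice, so the gap between the types is no finding. The upper set is the 15 genes of largest ratio among those that qualified, read in 8 to 10 PV cells and in 0 to 2 pyramidal cells, and the lower set is every gene that qualified, with Neurod6 read in 1 PV cell and Cpne6 in 6.

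Levels of the 2 sets in the other cell types were set beside these without a test. Of the 271 genes higher in PV than in pyramidal cells, 169 had at least 50% of the PV level in CCK interneurons, 92 in burst and 94 in regular subiculum cells. Of the 72 genes higher in CA1 pyramidal cells, 7 had at least 50% of that level in CCK interneurons, 33 in burst and 32 in regular subiculum cells. The subiculum libraries were made with version 4 of the cDNA kit and had a read of a median of 8975 and 8946 genes at 200000 reads, so kit and region cannot be told apart there. Gad1 and Gad2 had 1933 and 1076 CPM in CCK interneurons, and Kcnc1, Gria4 and Scn1a 139.6, 105.7 and 263.2 CPM. Cacna2d2, Moxd1, Lhx6 and Pvalb were low in CCK interneurons, at 0.0452, 0.362, 0.724 and 0.648 CPM, against 105.2, 201.3, 245.1 and 337.5 CPM in PV cells. Gpr83 had 7.18 CPM and Nxph1 33.8 CPM in CCK interneurons. On the other side, Neurod6 and Itpka had 0.468 and 1.598 CPM in CCK interneurons, while Slc17a7, Nrgn and Itpka were higher in the burst subiculum cells, at 1361, 559.0 and 564.3 CPM, than the 378.7, 257.8 and 129.3 CPM of CA1 pyramidal cells. Zbtb20 and Fibcd1 had 8.62 and 6.92 CPM in burst cells against 231.7 and 415.3 CPM in CA1 pyramidal cells.

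**Figure D5:**
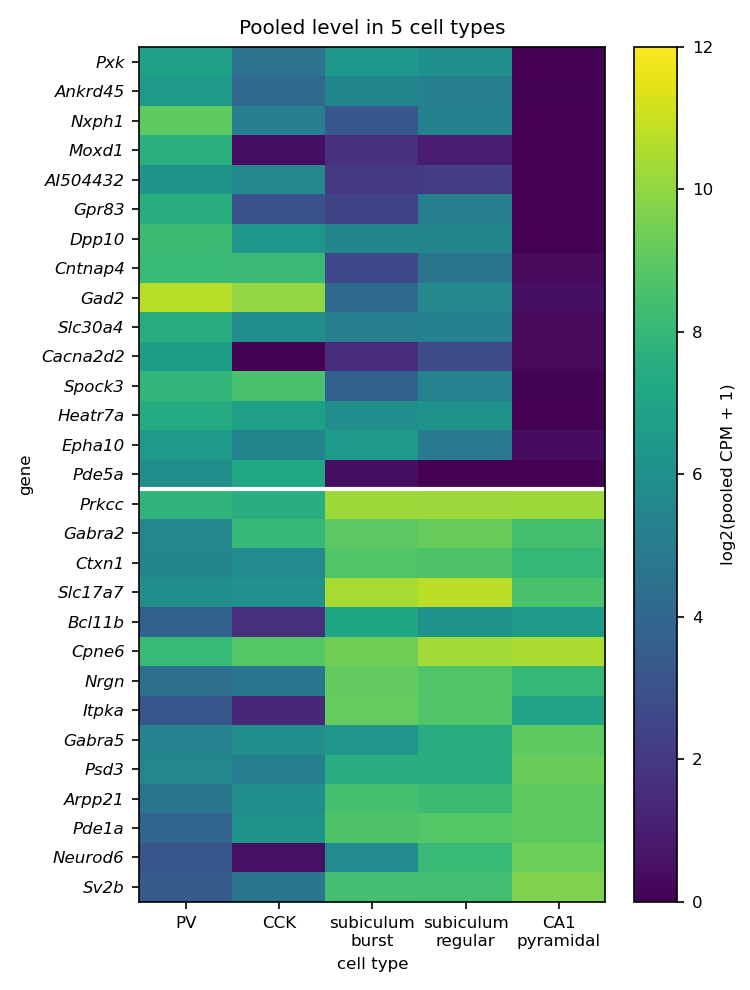
Pooled level, as log2(pooled CPM + 1) by colour, of the 15 genes higher in PV cells (above the white line) and the 14 higher in CA1 pyramidal cells (below it) in 5 cell types. Gad2, Cntnap4, Spock3 and Pde5a are also high in CCK interneurons, whereas Moxd1 and Cacna2d2 are at 0.362 and 0.0452 CPM there, and of the lower set Prkcc is at 1191 and 1163 CPM in burst and regular subiculum cells. Of the upper set, Pxk and Epha10 are at 83.9 and 91.4 CPM in burst cells, against 113.3 and 90.7 CPM in PV cells.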

How the data were processed

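The files hold 93 single cells and 15 tissue libraries, of which the 14 PV and 25 CA1 pyramidal cells were compared. The authors deposited raw read counts per gene symbol, 1 table over all samples with 23337 genes and 92 ERCC rows. Per the submitters' processing notes these came from FastQC, Trim Galore, cutadapt, STAR and HTSeq, with builds mm10 and hg19 named, versions not given. Strand handling is not given in the sources used here, so overlapping, antisense and near-identical genes may share reads.

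Counts were converted to CPM without ERCC rows, pooled over a type and per cell (Python 3.11.15, pandas 2.3.3, numpy 2.4.6). Ratios carry exact Clopper-Pearson 95% intervals (scipy 1.17.1). A type with 0 reads was set to a floor of 3 reads over the type, 0.0984 CPM in PV and 0.0951 CPM in pyramidal cells. Each type counted as 1 sample, since no animal is named, so no p-value was computed. Depth per cell is given with the results. The steps were tested on simulated data. In these, the genes given a difference were exempt from the random setting to 0 applied to other genes. The demand on the share of cells was thus not tested under such loss. Scaling factors for 1 alternative came from edgeR 4.0.16 (R 4.3.3), and figures from matplotlib 3.10.9. Gene coordinates are from GENCODE M21, and promoters from RefSeq GRCm38.p6.

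Genes were named by rule: the markers; up to 15 each way by ratio of mean CPM among genes past the threshold with at least 20 CPM, a read in 60% of thinned cells and 40 points more than in the other type; up to 4 each way per list and 2 near a ratio of 1; and neurexins with their partners. Other genes named (Camkv, Gria1, Gria2, Gria3, Grin2a and Grin2b) were chosen after their values were seen. Some genes the rule names are not reported here. The types compared and the gene lists were chosen with earlier results of these data known. Alternatives varied scaling, level, fold, thinning and the cells used.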

Additional observations from a re-analysis of the deposited data

How the results depend on the processing

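The genes higher in PV cells (271, or 2.63% of those considered) outnumbered those higher in pyramidal cells (72, or 0.698%) under every alternative run, but both shares moved; each is of the genes considered under that setting. By the mean of per-cell CPM alone 1.17% were higher in pyramidal cells, and with every cell thinned 1.10%. A fold of 2 gave 6.23% higher in PV cells and 1.81% higher in pyramidal cells, and a fold of 8 gave 1.36% and 0.281%. With no share of cells required 17.5% were higher in PV cells and 14.6% in pyramidal cells, with 20 lists having more members higher in PV cells and 10 the reverse, against 13 and 6, so the size of the PV excess depends on that requirement. Cells with spike-in alone gave 11.5% and 1.43%, PV cells first, and those without it 4.52% and 1.88%. Without the cells of few genes 6.20% were higher in PV cells and 21 lists had more such members, and without the cells against their label 4.84% and 20, both chosen after seeing the data. Leaving out 1 cell at a time gave 2.62% to 4.02% higher in PV cells, 0.652% to 0.902% higher in pyramidal cells, 12 to 20 lists with more members higher in PV cells and 5 to 8 with the reverse. The PV count was 408, 411 and 415 without PV replicates 3, 10 and 11. Of 48 named genes higher in PV cells 34 kept their call without any single cell, as did 23 of 26 higher in pyramidal cells. TMM scaling gave 258 and 77 genes. Of the 48, 37 kept their call in cells with spike-in alone and 37 in cells without it, as did 24 and 21 of the 26. None of these 74 genes changed sign under the alternatives run, though the log2 ratio of Arc was 0 by the median of cells. The cause of these shifts was not tested. Depth limits genes of few reads, where a single cell sets the ratio. No paired analysis was possible because the labels give single cells no replicate numbers.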
